A study of Mus musculus and Homo sapiens with 65 samples.

Results

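The RNA exosome is the main machine that degrades and trims RNA from its 3′ end in animal cells. Its core is a ring of RNase PH-like proteins (Exosc4, Exosc5, Exosc6, Exosc7, Exosc8 and Exosc9), which in mammals has lost its own catalytic activity. A cap of RNA-binding proteins (Exosc1, Exosc2 and Exosc3) covers the ring on the side where RNA enters. The cutting is done by bound ribonucleases, DIS3 and EXOSC10, while helicase adaptors bring substrates to the complex. The nuclear form matures ribosomal and small nucleolar RNA and removes by-products of transcription, and the cytoplasmic form degrades mRNA. In the mouse oocyte EXOSC10 is needed for normal growth and maturation. The 2-cell embryo still holds RNA stored by the oocyte and has begun transcription from its own genome, so transcripts of either origin can be present.

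The genes described are 10 subunit genes of this complex, chosen by their symbols among the 32287 genes listed for each library. Exosc6, the remaining ring gene, was not analysed here. Levels were measured by RNA-seq in 9 libraries of mouse late 2-cell embryos, in 4 groups. They were embryos treated with alpha-amanitin, an inhibitor of RNA polymerase II (2 libraries), embryos injected as zygotes with fluorescein-tagged morpholinos against Kdm5a and Kdm5b (2 libraries), embryos injected in the same way with mismatch morpholinos differing at 5 bases (2 libraries), and wild-type embryos (3 libraries). Injection was done 0.5 days after conception, and embryos were grown in G1 plus medium. Kdm5a and Kdm5b encode demethylases of lysine 4 of histone H3, and morpholinos are antisense compounds that hinder the translation or splicing of an mRNA. The labels give no dose or duration for alpha-amanitin, do not say whether those embryos were injected, and give no mouse strain and no number of embryos per library, so it is not known whether replicates came from separate collections. The p-values are thus set against the spread of these libraries alone, and that spread may be technical.

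Levels are the authors' FPKM, fragments scaled by gene length and by each library's mapped fragments. They are relative to the other RNA of the same library, and in such bulk samples fewer cells and less RNA per cell cannot be told apart. Read counts were not used here, so depth in reads is unknown. The deposited bounds of the FPKM gave a relative depth, with wild-type replicate 1 set to 1, of 1.22 and 0.917 with alpha-amanitin, 1.96 and 1.60 with Kdm5a+b morpholinos, 2.26 and 1.59 in mismatch controls, and 0.869 and 0.875 in the other wild-type libraries. Levels for Kdm5a, which a morpholino that blocks translation need not lower, were 19.5 and 15.3 FPKM with Kdm5a+b morpholinos and 12.8 and 9.44 FPKM in mismatch controls. Kdm5b stood at 38.1 and 27.6 FPKM with Kdm5a+b morpholinos, and at 55.3 and 39.6 FPKM in mismatch controls. In wild type Kdm5a stood at 17.1, 13.6 and 11.2 FPKM, and Kdm5b at 34.8, 54.0 and 65.7 FPKM.

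Markers of the 2-cell stage were high in the 7 libraries without alpha-amanitin and low with it, and oocyte markers were present throughout. Markers of other cells summed to at most 8.41 FPKM per list in any library. Single values, up to 7.83 FPKM for Ovgp1, still exceeded the wild-type means of some subunit genes (1.97 FPKM for Exosc5 and 4.29 FPKM for Exosc2). The summed FPKM of 5 genes of the 2-cell stage was 8.87 and 4.84 with alpha-amanitin, 282 and 335 with Kdm5a+b morpholinos, 282 to 288 in mismatch controls and 223 to 295 in wild type. All 5 reached 1 FPKM in each of the 7 libraries without alpha-amanitin. With alpha-amanitin 3 and 2 of them did, and Ubtfl1 was listed at 0 in both. The summed FPKM of 5 oocyte genes was 588 and 627 with alpha-amanitin, 268 to 286 with Kdm5a+b morpholinos, 259 to 282 in mismatch controls and 235 to 333 in wild type. In every library 4 of the 5 oocyte genes reached 1 FPKM, and Mos did not. Most of that sum was Bmp15, a growth factor gene of the oocyte, which rose with alpha-amanitin to a mean of 475 FPKM, against 201 FPKM in wild type (log2 difference 1.26, adjusted p = 0.00121 by limma). Gdf9 and Zp3 overlapped between these groups, and Zp2 had an adjusted p of 0.0526. For cumulus cells, 5 genes summed to at most 0.357 FPKM with alpha-amanitin, 0.733 with Kdm5a+b morpholinos, 3.29 in mismatch controls and 3.44 in wild type, and Ptx3 was listed at 0 in 8 libraries. The only cumulus marker that could be tested, Tnfaip6, was called lower with alpha-amanitin, with a mean of 0.0650 FPKM, against 2.25 FPKM in wild type (log2 difference -1.57, adjusted p = 0.0456 by limma), and the groups did not overlap. For blood cells, 5 genes summed to at most 3.65 FPKM with alpha-amanitin, 5.25 with Kdm5a+b morpholinos, 3.08 in mismatch controls and 7.21 in wild type, with Hbb-bs listed at 0 throughout. For oviduct, 5 genes summed to at most 0.874 FPKM with alpha-amanitin, 8.41 with Kdm5a+b morpholinos, 6.12 in mismatch controls and 4.12 in wild type. For sperm, 5 genes summed to at most 0.0076 FPKM with alpha-amanitin, 0.00694 with Kdm5a+b morpholinos, 0.121 in mismatch controls and 5.96 in wild type, with Prm1 listed at 0 throughout. The part of any of these markers in the results was not tested.

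All 10 subunit genes were detected in each wild-type library, at unequal levels. In wild type Exosc8 averaged 33.2 ± 13.2 FPKM, Exosc3 30.4 ± 10.6 FPKM and Exosc10 17.9 ± 5.20 FPKM (SD, n = 3 each). Dis3 followed at 9.87 ± 1.70 FPKM, with the smallest relative spread of the 10 genes (SD 17.2% of the mean). Below it Exosc9 averaged 7.24 ± 5.10 FPKM, and Exosc7, Exosc4, Exosc1 and Exosc2 lay together at 4.86, 4.71, 4.56 and 4.29 FPKM. Exosc5 was lowest, at 1.97 ± 0.581 FPKM. Along this order the ranges of neighbouring genes overlapped, except that every wild-type library had more Exosc10 than the highest Dis3 value, and more Exosc2 than the highest Exosc5 value. All 90 member values carried the status OK in the authors' files. Of these, 81 lay inside their own bounds, and 9 lay above the upper bound (Exosc3 in 6 libraries and Exosc8 in 3), so the bounds do not describe the precision of those 2 genes.

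**Figure D1:**
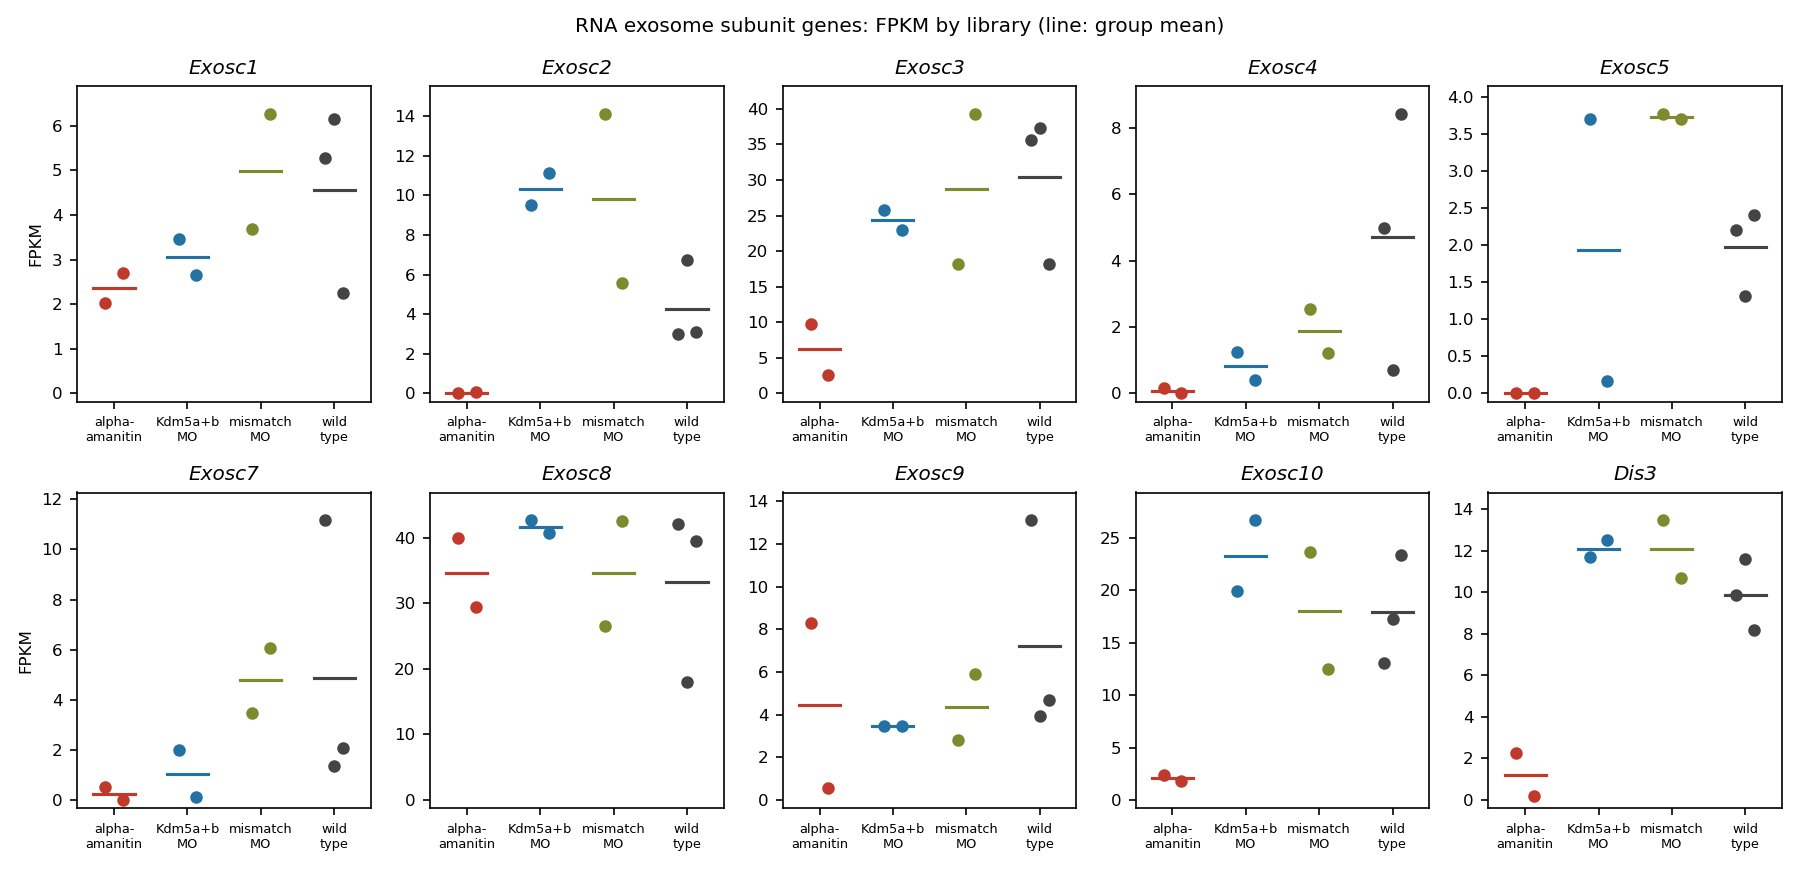
FPKM of the 10 RNA exosome subunit genes in each library, 1 panel per gene, with a point per library and a line at the group mean; MO is morpholino, and each vertical axis has its own scale. The alpha-amanitin points lie below all 7 other libraries for Exosc2, Exosc3, Exosc4, Exosc5, Exosc10 and Dis3, and among them for Exosc8.

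Promoter sequences are shown for 3 genes that were lower with alpha-amanitin (Exosc2, Exosc3 and Exosc10) and for Exosc8, which overlapped wild type. A link between these sequences and the levels was not tested. They come from RefSeq promoter windows of GRCm38.p6, which is mm10, and each run is the stretch of the 250 bases before the RefSeq start that GENCODE release M21 places in no exon. They are Exosc2 at chr2:31670465-31670714 (plus strand), Exosc3 at chr4:45320630-45320866 (minus strand), Exosc10 at chr4:148558169-148558418 (plus strand) and Exosc8 at chr3:54735394-54735538 (minus strand), written 5′ to 3′ on the gene's strand. The span that the files give for Exosc3 reaches beyond its RefSeq start, to position 45342732. Capitals mark letters that match a searched motif on either strand.
Exosc2: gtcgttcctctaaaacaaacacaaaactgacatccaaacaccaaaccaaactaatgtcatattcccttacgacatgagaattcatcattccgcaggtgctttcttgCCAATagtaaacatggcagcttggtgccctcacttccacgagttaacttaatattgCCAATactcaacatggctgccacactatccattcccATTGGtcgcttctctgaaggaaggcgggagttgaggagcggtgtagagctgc
Exosc3: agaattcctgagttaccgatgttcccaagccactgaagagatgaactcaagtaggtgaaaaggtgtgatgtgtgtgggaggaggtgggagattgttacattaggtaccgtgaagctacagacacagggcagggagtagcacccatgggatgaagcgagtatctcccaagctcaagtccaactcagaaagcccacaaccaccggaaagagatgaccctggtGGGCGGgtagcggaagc
Exosc10: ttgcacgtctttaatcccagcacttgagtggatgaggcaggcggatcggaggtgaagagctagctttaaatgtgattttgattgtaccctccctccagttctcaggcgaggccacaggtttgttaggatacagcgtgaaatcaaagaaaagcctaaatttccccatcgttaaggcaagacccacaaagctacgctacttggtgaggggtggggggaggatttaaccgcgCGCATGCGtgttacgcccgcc
Exosc8: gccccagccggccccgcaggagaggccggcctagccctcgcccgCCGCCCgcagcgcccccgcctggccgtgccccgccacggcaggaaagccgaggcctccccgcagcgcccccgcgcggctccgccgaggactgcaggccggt
The search used the ETS family core with the letters CCGGAAG, the NRF1 core with the letters GCATGCG, the GC box with the letters GGGCGG, the CAAT box with the letters CCAAT, the YY1 core with the letters AAGATGG, and the TATA box with the letters TATAAA. Both strands were read, and an NRF1 match can overlap its own reverse complement. A promoter entry was found for 8 of the 10 genes; Exosc4 and Exosc9 had none. Exosc10 had a pair of windows, and Dis3's lies wholly in annotated exons and is not shown.

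Over the full 250-base windows, Exosc2 held the CAAT box letters 3 times, and at Exosc10 the NRF1 letters matched both strands of 1 overlapping stretch. The GC box letters were found 2 times at Exosc8 and 1 time at Exosc3. Among the 8 matched genes, 6 held a GC box, 4 a CAAT box, 2 an ETS core, 2 an NRF1 core, and 0 a YY1 core or a TATA box. Genes were counted if any window matched, and Exosc10, with a pair of windows, had its ETS match in the window not shown. The shares that follow count single windows. Over all 32851 RefSeq promoter windows of that length, the share was 32.7% for the GC box, 33.8% for the CAAT box, 6.91% for the ETS core, 3.02% for the NRF1 core, 4.49% for the YY1 core and 12.4% for the TATA box. The windows held between 7 CpG dinucleotides, at Exosc2 and Exosc3, and 33, at Exosc7 and Exosc8, against a median of 6 over all windows. A match describes the letters of a window only.

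Alpha-amanitin against wild type asks which of these transcripts depend on new transcription in the embryo. With alpha-amanitin 5 of the 10 genes fell (Exosc2, Exosc3, Exosc4, Exosc10 and Dis3) and 0 rose, by limma on log2(FPKM + 1) at an adjusted p under 0.05 over 13137 genes. Over all genes tested, 25.1% fell (3299) and 4.31% rose (566), so a fall was common in these libraries. Log2 differences were below 0 for 9 of the 10 genes, and for 8646 of the 13137 genes tested. The median of the 10 genes was -1.97, against -0.56 over all genes tested. Quantile normalization set the median of all genes at 0.17, gave 1806 lower and 1716 higher calls, and left 2 of the 10 genes called lower, with 7 of 10 below 0. Relative to the median of all genes, the members' median was -1.42 as fitted and -1.32 after quantile normalization, and over the other alternatives it ran from -2.32 with a pseudocount of 0.1 to -0.95 without alpha-amanitin replicate 2. In 7 of the 10 genes both alpha-amanitin libraries lay below all wild-type libraries, which held for 41.1% of all genes tested. In 6 of them they lay below all 7 other libraries, against 34.5% of all genes tested. For 1 gene alone, the two-sided exact permutation p used here doubles the smaller tail. With 2 libraries set against 3 it could not be smaller than 0.2, and the calls come from the model.

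Both catalytic subunits fell, where 25.1% of all genes tested fell. Exosc10 (ENSMUSG00000017264, chr4:148558429-148582401), the nuclear 3′ to 5′ exoribonuclease, stood at 2.33 and 1.82 FPKM with alpha-amanitin, against 13.0, 17.3 and 23.4 FPKM in wild type. The groups did not overlap, and the mean with alpha-amanitin was 0.116 of the wild-type mean. The log2 difference was -2.59 (SE 0.40, adjusted p = 0.000729). Dis3 (ENSMUSG00000033166, chr14:99076634-99099770), the exosome's main processive exoribonuclease, which also cuts RNA internally, stood at 2.24 and 0.193 FPKM with alpha-amanitin, against 9.85, 11.6 and 8.18 FPKM in wild type. The second alpha-amanitin library was far below the first, and both lay below all wild-type libraries. The log2 difference of Dis3 was -2.45 (SE 0.47, adjusted p = 0.00266), and leaving out the first or the second alpha-amanitin library moved it to -3.18 or to -1.73. Exosc10 and Dis3 were called in all 17 alternative settings, with adjusted p between 0.000602 and 0.0156 for Exosc10 and between 0.000968 and 0.049 for Dis3. Quantile normalization gave log2 differences of -1.61 for Exosc10 and -1.36 for Dis3.

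Of the 3 cap genes, Exosc2 and Exosc3 fell and Exosc1 did not pass the test, where 25.1% of all genes tested fell. Exosc2 (ENSMUSG00000039356, chr2:31670715-31681350), a cap protein with S1 and KH RNA-binding domains, was listed at 0 and at 0.0550 FPKM with alpha-amanitin, against 2.98, 6.75 and 3.12 FPKM in wild type. Both alpha-amanitin values lay below wild type. Without read counts a listed 0 cannot be read as absence, and no fold is given against a 0. Gapdh, a gene used by every cell, was itself listed at only 0 to 1.74 FPKM over the 9 libraries, and the reason was not tested. For Exosc2 the upper bounds with alpha-amanitin were 0.588 and 0.842 FPKM, and the lower bounds in wild type were 2.04, 5.42 and 2.14 FPKM. The log2 difference was -2.29 (SE 0.51, adjusted p = 0.0067), and the call ended with quantile normalization (adjusted p = 0.0536; 0.000375 to 0.0536 over the 17 alternatives). Exosc3 (ENSMUSG00000028322, chr4:45316613-45342732), the related cap protein, had 9.83 and 2.56 FPKM with alpha-amanitin, against 35.7, 37.4 and 18.2 FPKM in wild type. The groups did not overlap, and the mean with alpha-amanitin was 0.204 of the wild-type mean. Its log2 difference was -2.27 (SE 0.52, adjusted p = 0.00797). Without alpha-amanitin replicate 2, the lower library, the log2 difference of Exosc3 was -1.47 and the call ended (adjusted p = 0.0788; 0.00257 to 0.0929 over the 17 alternatives). Exosc1 (ENSMUSG00000034321, chr19:41922980-41933314), the cap protein that corresponds to yeast Csl4, had 2.03 and 2.69 FPKM with alpha-amanitin, against 5.28, 6.15 and 2.25 FPKM in wild type. Wild-type replicate 3 lay between the alpha-amanitin libraries, and the log2 difference of -0.66 (SE 0.49, adjusted p = 0.344) did not pass the test.

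Of the 5 ring genes measured, Exosc4 was called lower and the other 4 were not called, where 25.1% of all genes tested fell. Whether the ring genes differ in response from each other, or from the cap and catalytic genes, was not tested. Exosc4 (ENSMUSG00000034259, chr15:76327397-76330677), the counterpart of yeast Rrp41, had 0.168 and 5.41e-11 FPKM with alpha-amanitin, against 5.00, 0.709 and 8.43 FPKM in wild type. The alpha-amanitin values lay below a wild-type group that was itself widely spread. The log2 difference of Exosc4 was -2.09 (SE 0.68, adjusted p = 0.0417), and the call held in only 5 of 17 alternatives, with adjusted p up to 0.225. Leaving out any 1 library other than wild-type replicate 2 ended the call of Exosc4. Exosc5 (ENSMUSG00000061286, chr7:25659153-25668031), the counterpart of Rrp46, was listed at 0 in each library with alpha-amanitin, against 2.20, 1.31 and 2.40 FPKM in wild type. The groups did not overlap, and the log2 difference of -1.55 (SE 0.59, adjusted p = 0.0711) did not pass the test, although it did in 5 of 17 alternatives. Exosc7 (ENSMUSG00000025785, chr9:123113215-123136129), the counterpart of Rrp42, had 0.499 FPKM and a listed 0 with alpha-amanitin, against 11.2, 1.36 and 2.07 FPKM in wild type. Wild-type replicate 1 stood far above the rest, the groups did not overlap, and the log2 difference of -1.86 (SE 0.74, adjusted p = 0.0827) did not pass the test. Without wild-type replicate 1 the log2 difference of Exosc7 was -1.14.

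The remaining ring genes overlapped between the groups. Exosc9 (ENSMUSG00000027714, chr3:36552606-36565729), the counterpart of Rrp45, had 8.29 and 0.578 FPKM with alpha-amanitin, against 13.1, 3.92 and 4.68 FPKM in wild type. The first alpha-amanitin library lay inside the wild-type range and the second below it, and the log2 difference was -0.94 (SE 0.74, adjusted p = 0.37), with either sign among the alternatives. Exosc8 (ENSMUSG00000027752, chr3:54728678-54735393), the counterpart of Rrp43, had 39.9 and 29.4 FPKM with alpha-amanitin, against 42.1, 18.1 and 39.5 FPKM in wild type. Both alpha-amanitin values lay within the wild-type range. The log2 difference of Exosc8 was 0.13 (SE 0.39, 95% interval -0.73 to 0.99, adjusted p = 0.823), and its sign also turned when single libraries were left out. That interval includes changes of either sign. Whether Exosc8 differs in response from the other subunits was not tested.

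The summed level of the 10 genes and its make-up are given as a description, with no test. The 10 genes together came to 65.3 and 37.3 FPKM with alpha-amanitin, 123 and 121 with Kdm5a+b morpholinos, 112 and 134 in mismatch controls, and 140, 104 and 112 in wild type. Without Exosc8 the sum was 25.4 and 7.90 FPKM with alpha-amanitin, 80.8 and 80.0 with Kdm5a+b morpholinos, 85.6 and 91.1 in mismatch controls, and 98.3, 86.4 and 72.7 in wild type. Both sums were lower in each alpha-amanitin library than in every other library. Exosc8 made up 61.1% and 78.8% of the sum with alpha-amanitin, 34.5% and 33.7% with Kdm5a+b morpholinos, 23.7% and 31.8% in mismatch controls, and 30.0%, 17.3% and 35.2% in wild type. The share of Exosc3 was 15.0% and 6.87% with alpha-amanitin, against 25.4%, 35.8% and 16.2% in wild type. In order of mean level with alpha-amanitin, Exosc8 (34.6 FPKM) was followed by Exosc3 (6.19), Exosc9 (4.43), Exosc1 (2.36) and Exosc10 (2.08). The number of subunit genes under 1 FPKM was 4 and 6 with alpha-amanitin, 0 and 3 with Kdm5a+b morpholinos, 0 and 0 in mismatch controls, and 0, 1 and 0 in wild type. Over all genes listed, fewer also reached 1 FPKM with alpha-amanitin, at 7977 and 7935 genes, against 10611 to 11228 in the other libraries.

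**Figure D2:**
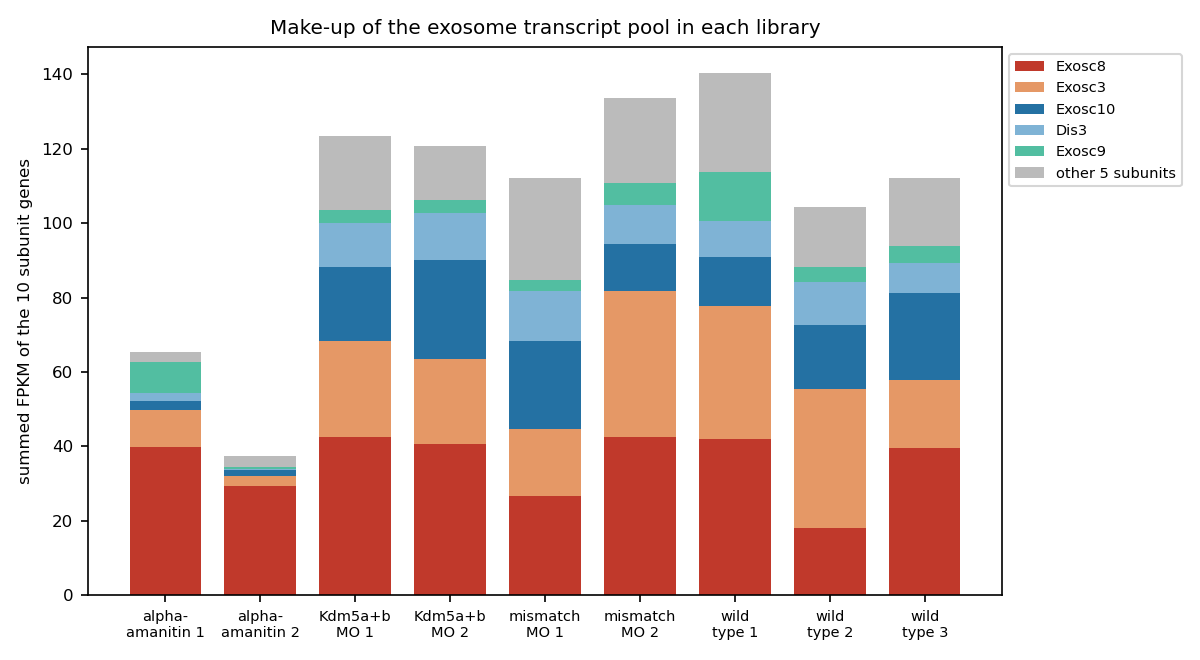
Summed FPKM of the 10 subunit genes in each library, stacked by gene; the grey block holds the other 5 subunits. The alpha-amanitin bars reach 65.3 and 37.3 FPKM and consist mostly of Exosc8, whereas the other bars lie between 104 and 140 FPKM.

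Several of these subunit genes overlap a neighbouring gene. Exons of 7 of the 10 genes overlap exons of a gene on the opposite strand in GENCODE M21, and no source used here states the strandedness of the libraries, so reads there cannot be assigned with certainty. The shared part was 19.8% of the exon bases of Exosc4 (with Oplah), 12.4% of Exosc2 (with the antisense gene Gm13427), 10.8% of Exosc9 (with Ccna2), and between 2.05% and 5.66% for Exosc3, Exosc5, Exosc8 and Dis3. Ccna2, the cyclin gene beside Exosc9, stood at 79.8 and 113 FPKM with alpha-amanitin and at 209, 300.2 and 219 FPKM in wild type, far above Exosc9. Supt20, which shares 2.05% of the exon bases of Exosc8, had 20.2 and 6.94 FPKM with alpha-amanitin, against 42.4, 48.9 and 43.4 FPKM in wild type. Both Supt20 values lay below wild type, where the Exosc8 values overlapped it.

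Start sites were also close to those of neighbours. For 7 of the 10 genes (70.0%) a protein-coding gene on the opposite strand starts within 1000 bases, against 16.4% of the 11297 protein-coding genes tested, both measured between GENCODE starts and given as a description. Among the 7 is Exosc3, whose GENCODE start lies 22116 bases from the RefSeq start of the sequence shown above. With RefSeq starts for the 8 genes that have a promoter entry, the count was 6 of 10 genes, without Exosc3. The nearest between GENCODE starts were Zdhhc3, 10 bases from Exosc7, Zdhhc16, 57 bases from Exosc1, and Alg5, 146 bases from Exosc8. Zdhhc3 stood at 20.1 and 8.08 FPKM with alpha-amanitin and at 7.64, 2.71 and 4.99 FPKM in wild type, while Exosc7 had 0.499 FPKM and a listed 0 with alpha-amanitin. Thus both Zdhhc3 values with alpha-amanitin lay above wild type and both Exosc7 values below it, and neither difference passed the test (adjusted p = 0.0817 and 0.0827). The other partners tested had log2 differences below 0, as did their subunit genes. They were Pibf1 beside Dis3 (-1.25), Oplah beside Exosc4 (-1.30), Dcaf10 beside Exosc3 (-0.60) and Zdhhc16 beside Exosc1 (-0.39). None of these partners passed the test by limma (adjusted p = 0.0912, 0.2, 0.394 and 0.745). A link between partners was not tested. Alg5 was under 1 FPKM with alpha-amanitin, at 0.692 and a listed 0, and in wild type, at 0.244, 0.102 and 0.417, beside Exosc8 at 18.1 to 42.1 FPKM.

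The same comparison was made for the partners of the complex. Dis3l, a cytoplasmic relative of DIS3, fell to 3.99 and 3.61 FPKM with alpha-amanitin, against 7.05, 12.7 and 12.7 FPKM in wild type (log2 difference -1.26, SE 0.38, adjusted p = 0.0315). Of 16 nuclear cofactor genes tested, 6 fell and 0 rose, with a median log2 difference of -0.64, where 25.1% of all genes tested fell and their median was -0.56. Ncbp1, the large subunit of the nuclear cap-binding complex, fell most, with 0.0203 and 0.00265 FPKM with alpha-amanitin, against 32.5, 34.8 and 25.7 FPKM in wild type (log2 difference -4.97, adjusted p = 7.01e-06). C1d, a nuclear partner of EXOSC10, had 5.04 and 0.148 FPKM with alpha-amanitin, against 16.1, 31.8 and 27.2 FPKM in wild type (log2 difference -3.25, adjusted p = 0.00337). C1d and Exosc10, whose proteins bind each other, were both lower in every alpha-amanitin library than in every wild-type library. That held for 41.1% of all genes tested. In wild-type replicates 1 and 3 C1d lay above its own upper bound (14.4 and 26.0 FPKM). Pabpn1, the nuclear poly(A)-binding protein, fell by 2.32 on the log2 scale (adjusted p = 0.000145), and Papd5, a TRAMP poly(A) polymerase, by 1.81 (adjusted p = 0.00154). The other called cofactors, named after their values were seen, were the helicase gene Skiv2l2 (MTR4; log2 difference -1.63, adjusted p = 0.0367) and Zfc3h1 (log2 difference -1.58, adjusted p = 0.0105). Mphosph6, an exosome-associated protein and also named after its value was seen, stood at 363 and 290 FPKM with alpha-amanitin, against 198, 258 and 177 FPKM in wild type (log2 difference 0.64, adjusted p = 0.0882). It is the nuclear partner with the highest FPKM, and its difference did not pass the test.

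The 7 genes for the cytoplasmic SKI complex and ribosome rescue had a median log2 difference of 0.33, against -0.56 over all genes tested. Among them 1 fell and 0 rose, where 25.1% of all genes tested fell. It was Skiv2l, the SKI2 helicase, with 0.192 and 1.20 FPKM with alpha-amanitin, against 4.03, 4.91 and 3.69 FPKM in wild type (log2 difference -1.68, adjusted p = 0.0205). The 16 tested genes for other RNA nucleases had a median log2 difference of -0.71, against -0.56 over all genes tested. Where 25.1% of all genes tested fell, 3 of these 16 fell and 0 rose. These were the nucleolar exonuclease Isg20l2 (log2 difference -3.02, adjusted p = 0.00103), the nuclear 5′ to 3′ exonuclease Xrn2 (-2.06, adjusted p = 0.0296) and Rexo4 (-1.85, adjusted p = 0.0136). Dis3l2, a further exonuclease, was too low to be tested. No test was made between these lists and the exosome genes, or between these lists and all genes tested.

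**Figure D3:**
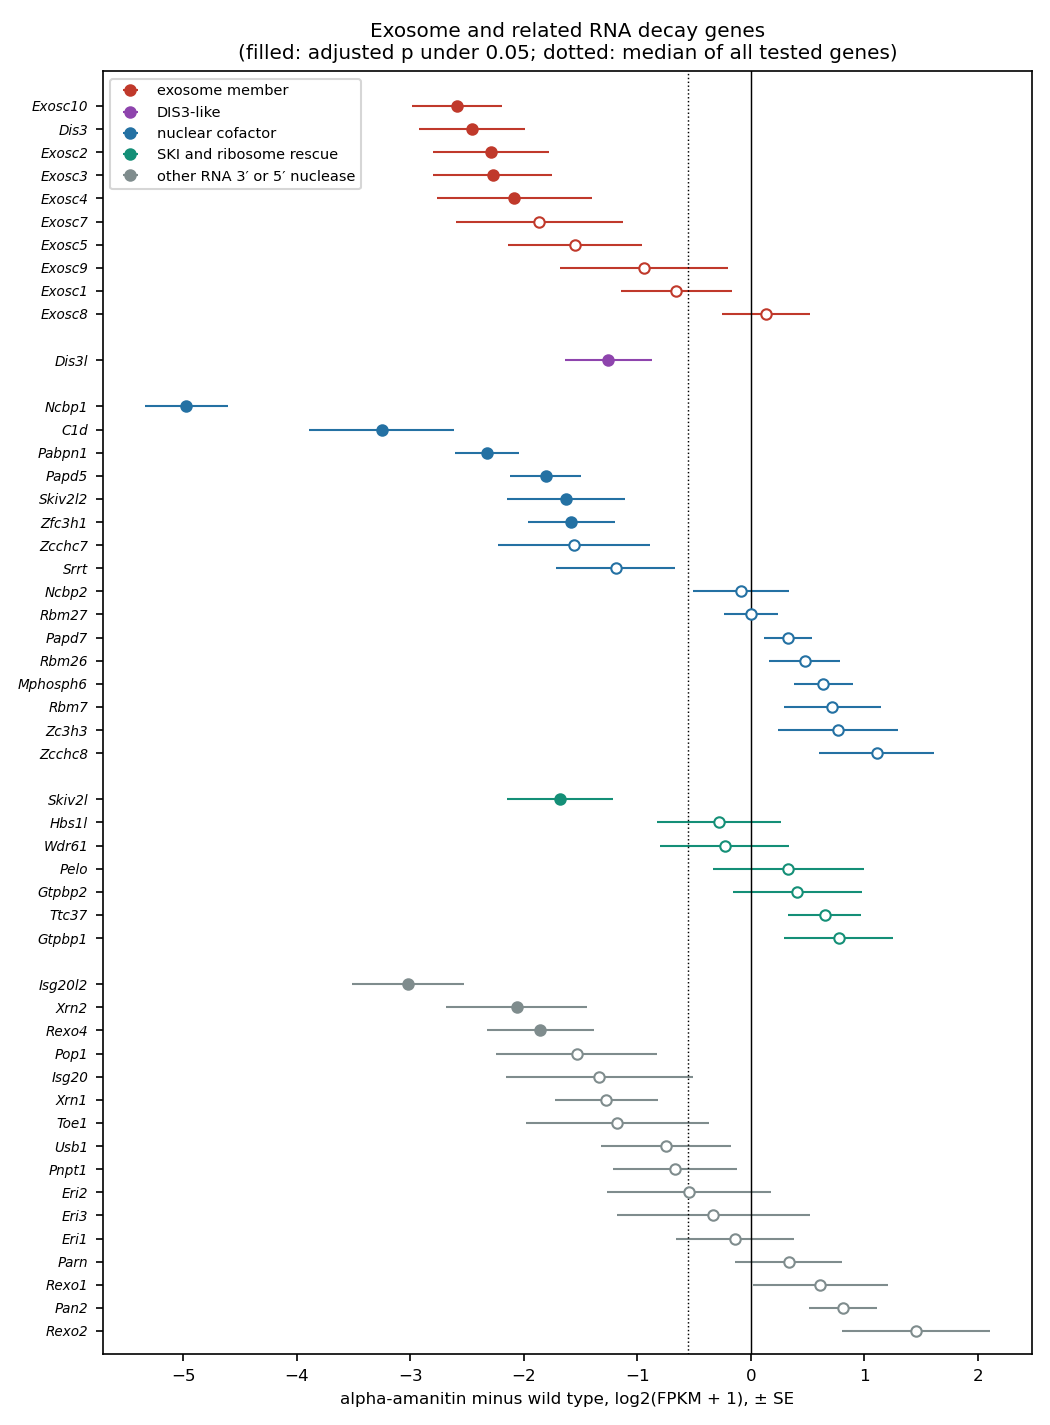
Log2 difference with alpha-amanitin minus wild type (horizontal axis, log2(FPKM + 1), bars ± SE) for the exosome genes and 4 lists of related RNA decay genes (rows); filled points passed the test at an adjusted p under 0.05, and the dotted line is the median of all genes tested, -0.56. The filled points all lie left of 0; Exosc8 is at 0.13, with a sign that turned when single libraries were left out, and quantile normalization moved the median of all genes to 0.17.

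Over the 9 libraries, the genes outside these lists whose levels most resembled the mean of the 10 exosome genes were B230219D22Rik (Pearson r = 0.985), Sec23b (0.979), Rab2b (0.975), Dagla (0.974) and Psap (0.972), on log2(FPKM + 1). Each exosome gene was centred and scaled by its SD before that mean was taken, so low and high genes had equal weight. Sec23b, a gene for a coat protein of transport vesicles, had 1.25 and 0.234 FPKM with alpha-amanitin, against 19.0, 3.89 and 10.4 FPKM in wild type. The r values describe 9 points that share the low alpha-amanitin pair, and 459 of 13073 genes compared had an r over 0.9. Among the 10 genes themselves, r to their own mean, which includes each of them, ranged from 0.228 for Exosc8 and 0.586 for Exosc1 to 0.904 for Dis3 and 0.915 for Exosc3.

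Kdm5a+b morpholinos against mismatch controls asks whether these transcripts depend on the targeted demethylases, with injection matched. None of the 10 genes was called by limma (0 at an adjusted p under 0.05 and 0 at an unadjusted p under 0.05), as for all genes tested (0.0% called, 414 genes at an unadjusted p under 0.05). Over the 17 alternatives no member was called, and the number at an unadjusted p under 0.05 was 2 without Kdm5a+b replicate 1, 1 without wild-type replicate 1, 1 with only the 2 groups fitted, and 0 otherwise. Log2 differences were below 0 for 6 of the 10 genes, and for 6521 of the 13137 genes tested. The median of the 10 genes was -0.17, against 0.0031 over all genes tested. In Exosc1, Exosc5 and Exosc7 both Kdm5a+b libraries lay below both mismatch libraries, and 16.8% of all genes did so. For 1 gene alone, 2 libraries set against 2 allow no two-sided exact permutation p smaller than 0.333.

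Exosc7 had 2.01 and 0.0982 FPKM with Kdm5a+b morpholinos, against 3.49 and 6.06 FPKM in mismatch controls. Both values were lower, and the log2 difference of -1.63 (SE 0.81, 95% interval -3.42 to 0.16, unadjusted p = 0.0699 by limma) was the largest in size among the 10 genes and did not pass the test. It was -2.36 without Kdm5a+b replicate 1 and -0.90 without replicate 2. Exosc5 had 3.69 and 0.172 FPKM with Kdm5a+b morpholinos, against 3.77 and 3.70 FPKM in mismatch controls. Its first Kdm5a+b library stood at nearly the mismatch level and its second far below, and the log2 difference of Exosc5 was -1.01, but -2.01 without Kdm5a+b replicate 1 and -0.012 without replicate 2. Exosc1 had 3.47 and 2.65 FPKM with Kdm5a+b morpholinos, against 3.69 and 6.26 FPKM in mismatch controls, and Exosc4 had 1.25 and 0.413 against 2.54 and 1.21 FPKM. In the second Kdm5a+b library Exosc4, Exosc5 and Exosc7 were the 3 subunit genes under 1 FPKM.

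The other members overlapped between both injected groups. Exosc10 had 20.0 and 26.7 FPKM with Kdm5a+b morpholinos, against 23.6 and 12.5 FPKM in mismatch controls (log2 difference 0.40, 95% interval -0.56 to 1.37). Dis3 had 11.7 and 12.5 FPKM with Kdm5a+b morpholinos, against 13.4 and 10.7 FPKM in mismatch controls (log2 difference 0.0097, 95% interval -1.12 to 1.14). For both catalytic genes the intervals include changes of either sign. Exosc3 had 25.7 and 22.9 FPKM with Kdm5a+b morpholinos, against 18.2 and 39.3 FPKM in mismatch controls. Exosc2 had 9.51 and 11.1 FPKM with Kdm5a+b morpholinos, between the mismatch values of 14.1 and 5.56 FPKM. Exosc8 had 42.6 and 40.7 FPKM with Kdm5a+b morpholinos, against 26.5 and 42.6 FPKM in mismatch controls. Exosc9 had 3.48 and 3.46 FPKM with Kdm5a+b morpholinos, inside the mismatch values of 2.79 and 5.90 FPKM. No gene of the related lists was called in this comparison.

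Mismatch controls against wild type gives the shift that goes with injection of a mismatch morpholino. None of the 10 genes was called by limma (0 at an adjusted and 0 at an unadjusted p under 0.05), as for all genes tested (0.0% called, 616 genes at an unadjusted p under 0.05). Over the 17 alternatives no member was called, and the number at an unadjusted p under 0.05 was 2 without wild-type replicate 2, 1 without mismatch replicate 2, and 0 otherwise. The median log2 difference of the 10 genes was 0.13, against -0.0084 over all genes tested. Below 0 were 4 of the 10 genes, and 6660 of the 13137 genes tested. Exosc5 was the 1 member whose groups did not overlap, at 3.77 and 3.70 FPKM in mismatch controls and 2.20, 1.31 and 2.40 FPKM in wild type. In this way 9.26% of all genes lay higher and 8.85% lower, and 0 of the 10 members lay lower. Its log2 difference was 0.69 (95% interval -0.61 to 1.99, adjusted p = 0.999). Exosc2 had the log2 difference farthest from 0, with 14.1 and 5.56 FPKM in mismatch controls and 2.98, 6.75 and 3.12 FPKM in wild type (log2 difference 0.99, 95% interval -0.15 to 2.12, adjusted p = 0.999). The Exosc2 ranges overlapped, and without mismatch replicate 1, wild-type replicate 1 or wild-type replicate 2 another member was farther from 0. Exosc4 was lower on average, with 2.54 and 1.21 FPKM in mismatch controls and 5.00, 0.709 and 8.43 FPKM in wild type (log2 difference -0.71, 95% interval -2.23 to 0.80). This comparison and the alpha-amanitin one share the wild-type libraries. No gene of the related lists was called in it.

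**Figure D4:**
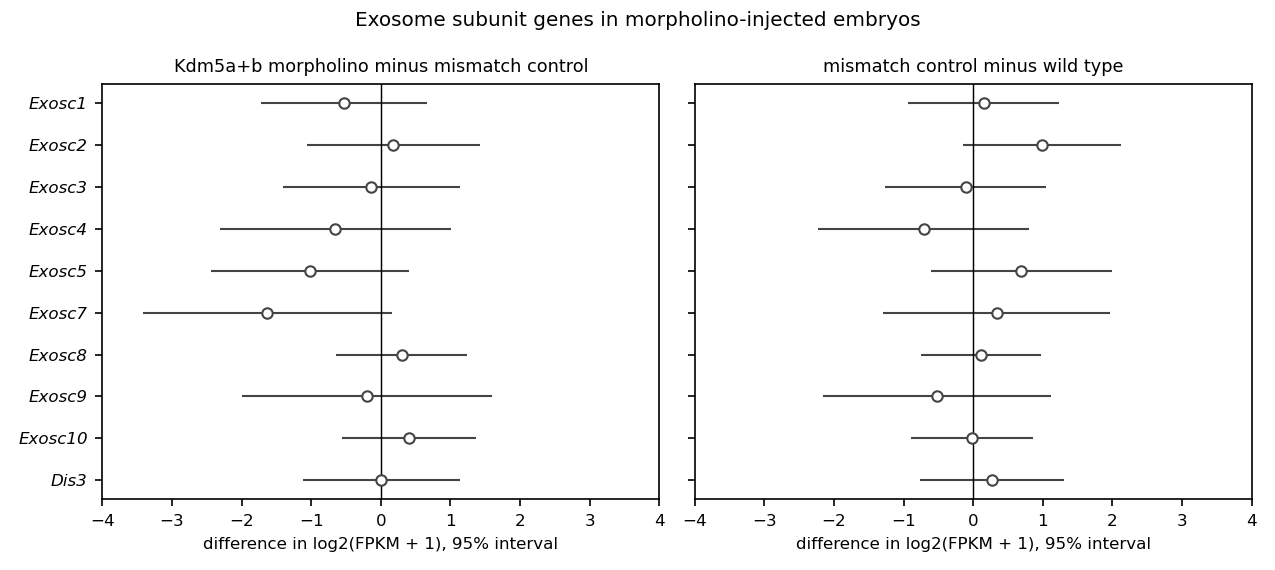
Log2 difference (horizontal axis, log2(FPKM + 1), bars are 95% intervals from limma) of each exosome gene, for Kdm5a+b morpholino minus mismatch control (left) and mismatch control minus wild type (right). All intervals include 0; the points farthest from 0 are Exosc7 on the left, at -1.63, and Exosc2 on the right, at 0.99, and the signs of several genes near 0 turned with scaling or with single libraries left out.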

How the data were processed

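Late 2-cell mouse embryos were profiled by RNA-seq in 9 libraries (total RNA, QIAGEN RNeasy Micro kit, TruSeq libraries, per the labels' protocols). The authors deposited 1 table of FPKM values per library, with a lower and an upper bound and a status for each gene, in the Cufflinks layout per the file headers. The submitters' processing notes name mm10 and Cufflinks; for the aligner of these reads and the release of the annotation, the sources used here give no name. Groups were taken from the sample labels, and the other libraries of the series were not analysed here.

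FPKM values were put on a log2 scale after adding a pseudocount of 1, and 13137 genes that reached 1 FPKM in 2 or more of the 9 libraries were tested with limma 3.58.1 (R 4.3.3). The model had group as its single term and took in all 9 libraries, leaving 5 residual degrees of freedom; eBayes was run with its trend option. Tests were two-sided, with Benjamini-Hochberg adjustment over all genes tested and a threshold of 0.05. Log2 differences are on the log2(FPKM + 1) scale, which understates changes of low genes. The procedure was tested on simulated data in which changes were planted only in the more abundant genes. That test does not cover low genes, several of the subunit genes among them. Single-gene permutation tests were exact (SciPy 1.17.1). A value of 0 is described as listed at 0, since without read counts it cannot be read as absence. Gapdh was also listed at 0 in 1 wild-type library and at no more than 1.74 FPKM in any.

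The members and the gene lists were chosen with earlier results of these data known. Named were all 10 members, Dis3l, per related list up to 4 called genes that fell most and up to 3 that rose most with alpha-amanitin, and the 5 other genes most like the members' mean. Relative depth came from the bounds of 7494 genes. Alternatives were a pseudocount of 0.1, no filter, a filter of 4 libraries, quantile normalization, TPM, a fit of only 2 groups, eBayes without trend, a replicate block, and each library left out. Same-numbered libraries of different groups deviated together at r between -0.0477 and 0.041 across genes, and the labels state no shared litter or day, so the numbers were not used as pairs.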

Additional observations from a re-analysis of the deposited data

How the results depend on the processing

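In the alpha-amanitin comparison, the 10 genes' log2 differences stayed on the same side of 0 and of the threshold in 143 of the gene-by-setting results; 16 lost the call, 6 gained it and 5 changed sign, the sign changes all in genes that were not called (Exosc1, Exosc8 and Exosc9). Members called lower numbered 7 with a pseudocount of 0.1, 6 with TPM, 3 with no filter, 2 with quantile normalization and 3 to 5 with each library left out, against 5. Genes called higher numbered 337 with no filter, 1716 with quantile normalization, 339 with only 2 groups, 371 with the replicate block and 298 to 502 with each library left out, against 566. Genes called lower numbered 2191 with no filter and 1806 with quantile normalization, against 3299; the replicate block gave 2744 and called 4 members. TPM moved the median of all genes to -0.75, from -0.56. With quantile normalization the log2 difference was 0.40 for Exosc1 and 0.048 for Exosc9. With each library left out it ran from -0.25 to 0.35 for Exosc8 and from -2.22 to 0.34 for Exosc9. For Exosc3 no filter (adjusted p = 0.0929) and quantile normalization (adjusted p = 0.0605) also ended the call by limma. The cause was not tested.

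For Kdm5a+b morpholinos against mismatch controls, no filter gave 16 genes higher and 8 lower, and leaving out a library gave 0 to 3 higher and 0 to 1 lower, against 0; no member was called. The log2 difference of Dis3 was -0.0039 with quantile normalization, -0.070 with TPM and between -0.14 and 0.16 with each library left out. That range was -0.42 to 0.78 for Exosc2, -0.67 to 0.40 for Exosc3, -0.032 to 0.63 for Exosc8, -0.63 to 0.24 for Exosc9 and -0.032 to 0.84 for Exosc10. For mismatch controls against wild type, no filter gave 8 genes higher, and leaving out a library gave 0 to 1 higher and 0 to 3 lower, against 0; no member was called. The replicate block gave -0.20 for Exosc1 and 0.18 for Exosc10; Exosc10 stood at 0.032 with quantile normalization and 0.020 with TPM. With each library left out, the range was -0.20 to 0.46 for Exosc1, -0.64 to 0.42 for Exosc3, -0.12 to 1.06 for Exosc7, -0.27 to 0.44 for Exosc8 and -0.45 to 0.42 for Exosc10. The replicate numbers did not pair the libraries. With 2 or 3 libraries a group and no read counts, differences of genes near 1 FPKM were hard to resolve.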

Other observations

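Among the 40 tested genes of the related lists, 7 had both alpha-amanitin libraries above all wild-type libraries (17.5%, against 13.4% of all genes tested), and 0 of these were called by limma. They were chosen for naming after their values were seen. Besides Mphosph6 they were Papd7, Zcchc8, Rbm26, Ttc37, Pan2 and Rexo2. Papd7 and Papd5 encode related poly(A) polymerases that mark RNA for the nuclear exosome. Papd7 had 163 and 138 FPKM with alpha-amanitin, against 132, 117 and 111 FPKM in wild type. Papd5 had 11.1 and 23.9 FPKM with alpha-amanitin, against 62.3, 60.4 and 57.1 FPKM in wild type. The difference between these responses was not tested. Similarly, Ttc37, the scaffold of the SKI complex, had 30.3 and 20.9 FPKM with alpha-amanitin and 17.9, 16.9 and 12.7 FPKM in wild type, while its helicase Skiv2l fell. Pan2, a deadenylase gene, had 44.9 and 42.6 FPKM with alpha-amanitin and 29.3, 24.6 and 20.2 FPKM in wild type (adjusted p = 0.0638).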
